A study of Mus musculus with 28 samples.

Results

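The mRNAs of 10 brain tubulins were followed through the sorting of mouse brain synaptosomes, the pinched-off nerve terminals that keep a piece of the postsynaptic membrane. They were the alpha-tubulin genes Tuba1a, Tuba1b, Tuba1c and Tuba4a and the beta-tubulin genes Tubb2a, Tubb2b, Tubb3, Tubb4a, Tubb4b and Tubb5, taken by gene symbol. All 10 were present in both deposited tables, among 25239 gene symbols for the SynSURF preparation and 24443 for the sucrose gradient preparation. SynSURF sorts synaptosomes held by a reversible fixative, and it gave 10 sorted and 10 crude libraries. The sucrose gradient preparation gave 3 sorted and 3 crude libraries. Per the labels, sorted particles were taken up in the reducing agent TCEP and the unsorted crude pellet in PBS, and poly(A) RNA of both was whole-transcriptome amplified with a Repli-g kit before library construction. The labels give the tissue as brain and the cell type as primary neurons, and they state no strain, genotype, age or number of animals. Whether replicates are separate animals or preparations is not stated either, and p-values therefore speak of the spread among these libraries, which may be technical. The 2 sorted total RNA libraries of the 28 in the series are not analysed here.

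Microtubules are polymers of alpha- and beta-tubulin heterodimers, and they carry transport along axons and dendrites. Mammals encode several isotypes of each subunit that differ mainly in the acidic carboxy-terminal tail, where polyglutamylation and most other tubulin modifications are added. Tuba1a is the main alpha-tubulin of developing neurons, Tubb3 is a beta-tubulin largely restricted to neurons within the brain, Tubb2a and Tubb2b are abundant in brain, Tubb4a is enriched in myelinating oligodendrocytes, and Tuba1b, Tubb4b and Tubb5 are widely expressed. Cells also adjust tubulin mRNA to the amount of free tubulin: the protein TTC5 recognises the first residues of nascent tubulin and brings the CCR4-NOT deadenylase to the message.

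The opening codons carry that recognition signal, and they are shown because they are the stretch that all members share in function. In each sequence the start codon is in lower case and the following codons are in capitals, read 5′ to 3′ from GENCODE M21 transcripts on GRCm38.
Tuba1a: atgCGTGAGTGC
Tuba1b: atgCGTGAGTGC
Tuba1c: atgCGTGAGTGC
Tuba4a: atgCGCGAGTGC
Tubb2a: atgCGCGAGATC
Tubb2b: atgCGAGAGATC
Tubb3: atgAGGGAGATC
Tubb4a: atgCGGGAAATC
Tubb4b: atgAGGGAGATC
Tubb5: atgAGGGAAATC
The alpha genes end this stretch in TGC and the beta genes in ATC, and the 3 Tuba1 genes are identical over it.

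The last 60 coding bases, which encode the carboxy-terminal tail, are shown for a beta pair whose reads are hard to separate and for the most abundant beta pair. Capitals mark bases that differ from the partner when both sequences are lined up at the stop codon without gaps.
Tubb2a and Tubb2b, each set against the other, differ at 3 of the 60 bases.
Tubb2a: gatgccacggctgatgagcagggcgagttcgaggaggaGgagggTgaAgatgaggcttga
Tubb2b: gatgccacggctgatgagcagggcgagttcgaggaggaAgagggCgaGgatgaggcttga
Tubb5 and Tubb4b, each set against the other, differ at 24 of the 60 bases.
Tubb5: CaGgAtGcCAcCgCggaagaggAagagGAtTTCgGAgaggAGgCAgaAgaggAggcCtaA
Tubb4b: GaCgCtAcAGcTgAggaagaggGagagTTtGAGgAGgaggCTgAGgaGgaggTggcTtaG

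How far a read can be assigned to a single member follows from this identity. The members have 4 exons each. Tuba1b (chr15:98931425-98934565, minus strand), Tuba1a (chr15:98949837-98953703, minus strand) and Tuba1c (chr15:99029891-99038110, plus strand) lie side by side, and their coding sequences are 97.1% to 98.3% identical. Of all 100-base windows of the transcript, 34.9% were found in no other annotated gene for Tuba1a, 30.5% for Tuba1b and 46.6% for Tuba1c, and the other windows were shared among the 3 genes or with annotated genes that carry only a Gm symbol. Tubb2a (chr13:34074274-34078007, minus strand) and Tubb2b (chr13:34126748-34130466, minus strand) are also neighbours, 96.5% identical, and had 63.1% and 72.3% of windows of their own. Tubb4b (chr2:25222160-25224702, minus strand) had 70.8% and shared the rest with Gm16165 and the pseudogenes Tubb4b-ps1 and Tubb4b-ps2.

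Every 100-base window was unique for the remaining 4 members. They are Tuba4a (chr1:75214228-75219865, minus strand), Tubb3 (chr8:123411424-123422015, plus strand), Tubb4a (chr17:57080066-57087782, minus strand) and Tubb5 (chr17:35833921-35838306, minus strand). Deposited values that are not whole numbers are a sign of counts that had been shared out. In SynSURF 44.5% of the members' values were not whole numbers, against 1.44% of all values, and in sucrose 80.0% were not whole, against 3.18% of all values. In SynSURF Tuba1a had 17 such values of 20, Tuba1b 16 and Tubb3 2. They did not follow the 100-base windows throughout. Tuba4a had 13 of 20 in SynSURF and 6 of 6 in sucrose, and Tubb5 had 4 of 20 and 5 of 6. Tubb4b, which shares windows, had 1 of 20 and 1 of 6. Levels of the 3 Tuba1 genes, and of Tubb2a and Tubb2b, therefore depend on how the authors' counting split shared reads, and summed values are given beside single ones. Levels of Tuba4a and Tubb5 may depend on it too.

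SynSURF sorted libraries were shallow. They held 76520 to 1812759 counts, against 1035423 to 8897238 in SynSURF crude libraries, and the sucrose libraries held 3018604 to 5196050 counts when sorted and 1844679 to 6793374 when crude. A precursor ribosomal RNA gene, Rn45s, took 0.805% to 62.5% of counts in SynSURF sorted libraries and 0.0894% to 0.778% in SynSURF crude ones. In the sorted libraries the tubulin values rest on few counts. The 4 alpha genes together had 7 to 9455 counts in a SynSURF sorted library and 783 to 8219 in a crude one, and the 6 beta genes 9 to 6611 in a sorted library and 860 to 9677 in a crude one. Levels below are CPM, counts scaled to a library total that was adjusted by TMM factors, and comparisons between genes use the authors' TPM, which is per transcript length.

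In SynSURF sorted libraries the isotypes had no firm order per length. Tuba1b had the highest median, 601 TPM with a range of 13.9 to 27268, followed by Tuba1a at 227 TPM (0 to 3345) and Tubb5 at 189 TPM (14.4 to 3531). Tubb3 ranked 4 at 81.7 TPM (26.5 to 850), against rank 8 in crude libraries. All 9 pairs of neighbours overlapped in range. A count was missing in 19 of the 100 combinations of member and sorted library, and 5 of the 10 members had a count in all 10 sorted libraries.

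The order was firmer in SynSURF crude libraries. There the median level per length was highest for Tuba1b at 632 TPM (range 264 to 1290). Tubb5 followed at 543 TPM (363 to 617), Tuba1a at 511 TPM (226 to 1184), Tubb4b at 453 TPM (330 to 841) and Tuba4a at 296 TPM (92.0 to 522). These 5 genes made up most of the tubulin message. The other beta genes were lower, with Tubb2b at 60.8, Tubb2a at 52.6, Tubb3 at 50.6 and Tubb4a at 43.8 TPM, and Tuba1c was last at 0.990 TPM. Neighbours in this order overlapped in range in 8 of 9 cases, the exception being Tubb4a over Tuba1c. Tubb5 was the steadiest, with a coefficient of variation over the 10 crude libraries of 0.158 on the CPM scale, against 0.317 for Tubb4b and 0.427 for Tuba1b.

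**Figure D1:**
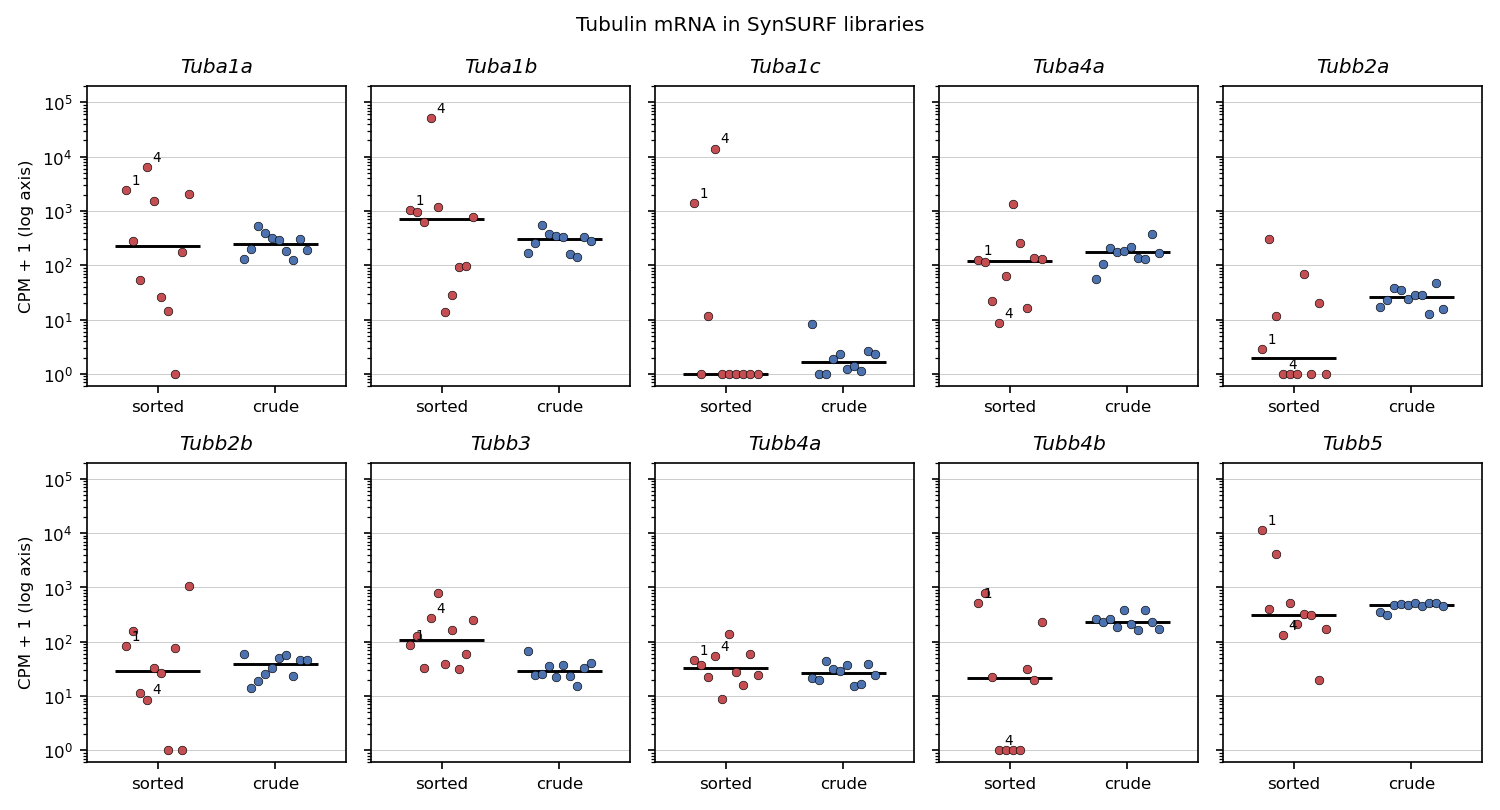
CPM + 1 on a log axis for each tubulin gene in the 10 SynSURF sorted (left, red) and 10 SynSURF crude (right, blue) libraries; each point is a library, the bar is the median, and sorted libraries 1 and 4 are numbered. Points at 1 are libraries with no count. Sorted libraries spread far more widely than crude ones for every gene, and Tuba1b, Tuba1a and Tuba1c all peak in sorted library 4.

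After SynSURF sorting, 2 of the 9 tubulins that could be tested were called higher than in crude libraries and none lower: the alpha-tubulin Tuba1b and the neuronal beta-tubulin Tubb3. Over all 6598 genes tested, 7.62% were called higher and 22.1% lower (edgeR quasi-likelihood test, adjusted p under 0.05), so 2 of 9 is set against a background of 7.62%. The median log2 fold change of sorted over crude was 1.96 for the 9 tubulins and -0.18 over all genes tested, and 8 of the 9 tubulins were positive. The scaling bears on this split: with library totals in place of TMM factors the median over all genes was -1.28, 100 genes were called higher and 2592 lower, against 503 and 1458 with TMM factors. Tuba1b and Tubb3 were called under both scalings, and the tubulins' median was then 0.41. That median also moved with single libraries, to 0.84 without sorted library 1, 0.84 without sorted library 4 and 0.80 without sorted library 10, and it was -0.54 with limma voom. In a fit with the replicate number as a block it was -0.0048, and neither Tuba1b nor Tubb3 was called.

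Of the alpha-tubulins, Tuba1b rose but mainly in 1 library. Its level had a lowest value of 12.6, a median of 704 and a highest of 51512 CPM in sorted libraries, against 142, 302 and 554 CPM in crude libraries. Of the sorted libraries, 6 lay above the highest crude library and 4 below the lowest, with none between. That split rests on the TMM factors. Of the unscaled total, sorted libraries 1, 2, 3 and 10 had 309, 770, 538 and 610 CPM, within the crude range of 165 to 847 CPM. The TMM-scaled means were 5631 ± 16127 CPM in sorted and 293 ± 125 CPM in crude libraries (SD, n = 10 each). The fitted log2 fold change was 4.26 ± 1.10 (SE; edgeR adjusted p = 0.00441). Sorted library 4 held 91.5% of the summed sorted CPM. There Tuba1b alone took 6764 of 325117 counts, or 2.08% (95% Wilson interval 2.03% to 2.13%). Without that library the log2 fold change was 0.84 (edgeR adjusted p = 0.336), and without sorted libraries 1 and 4 it was 0.65 (adjusted p = 0.451). It was also not called by the DESeq2 Wald test (0.55, adjusted p = 0.426) or by limma voom with sample weights (-0.35, adjusted p = 0.724). Library 4 also held the lowest summed shares among the sorted libraries of the oligodendrocyte, astrocyte and neuron marker lists, 0.782%, 0.0366% and 0.118%. Their part in the Tuba1b level was not tested.

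Tuba1a, the developmental alpha-tubulin, went both ways across sorted libraries. Its lowest, median and highest levels were 0, 226 and 6466 CPM in sorted libraries and 125, 243 and 520 CPM in crude libraries. Of the sorted libraries 4 lay above every crude one, namely 1, 4, 5 and 10, and 4 lay below every crude one. Crude libraries held 145 to 795 CPM of the unscaled total. On that scale sorted library 1, at 733 CPM, was within this range and library 9, at 105 CPM, was below it. The log2 fold change was 2.29 ± 0.89 (SE; edgeR adjusted p = 0.0519), which missed the threshold. Leaving out 1 library at a time gave 1.43 to 2.47 and a call in 6 of 20 fits.

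Tuba1c was abundant in a pair of sorted libraries and almost absent from crude ones. It had 1841 counts in sorted library 4, 762 in sorted library 1, 1 in sorted library 3 and 0 in the other 7. The crude libraries had 0 to 38 counts. This amounted to 14020 and 1409 CPM in sorted libraries 4 and 1, against at most 7.39 CPM in a crude library. Tuba1c did not pass the expression filter. With no filter edgeR gave a log2 fold change of 9.42 ± 1.90 (SE; adjusted p = 0.000603), which rests on these 2 libraries. Tuba1c shares most of its sequence with Tuba1a and Tuba1b.

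Tuba4a, an alpha-tubulin with every window its own, did not pass the threshold. Its lowest, median and highest levels were 7.62, 118 and 1365 CPM in sorted libraries and 55.8, 172 and 373 CPM in crude libraries. Sorted library 6 was the only sorted library above the crude range. The log2 fold change was 0.35 ± 0.72 (SE; edgeR adjusted p = 0.740), and it was -0.89 without library 6 and -0.58 with library totals in place of TMM factors.

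Of the beta-tubulins, Tubb3 was the one called. Its lowest, median and highest levels were 30.5, 106 and 785 CPM in sorted libraries, against 14.03, 28.05 and 66.7 CPM in crude libraries. On this TMM scale, 9 of the 10 sorted libraries were above the crude mean, 6 were above every crude library and none was below the crude range. The 9 rests on the TMM factors. Of the unscaled total, sorted libraries 1, 3, 6, 8 and 9 had 25.9 to 35.1 CPM, below the crude mean of 43.3 CPM. They were within the crude range of 16.3 to 78.2 CPM, and libraries 2, 4, 5, 7 and 10 were above it. The TMM-scaled means were 185 ± 229 CPM in sorted and 31.4 ± 14.6 CPM in crude libraries (SD, n = 10 each), with a log2 fold change of 2.56 ± 0.66 (SE; edgeR adjusted p = 0.00426). It was called in all 20 fits that left out 1 library, with log2 fold changes of 1.88 to 2.76 and adjusted p of 0.00220 to 0.0126. With library totals in place of TMM factors the log2 fold change was 1.67 (edgeR adjusted p = 0.0434). With the replicate number as a block the log2 fold change was 1.88 and was not called (edgeR adjusted p = 0.0778). The counts behind it were low, 2 to 99 in a sorted library.

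Tubb5, the most abundant beta-tubulin of crude libraries by CPM, was carried by a pair of sorted libraries. Sorted library 1 had 11505 CPM and sorted library 3 had 4140 CPM, while the other 8 had 19.1 to 507 CPM, against 307 to 522 CPM in crude libraries. The order of the pair rests on the TMM factors, since library 1 had 3432 and library 3 had 3522 CPM of the unscaled total. By TMM-scaled CPM, 5 of the sorted libraries lay below every crude one. The log2 fold change was 1.96 ± 0.80 (SE; edgeR adjusted p = 0.0635), and it was 0.60 without library 1. It was called in 6 of the 20 fits that left out 1 library, with an adjusted p as low as 0.0331.

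Tubb2b and Tubb2a, the neighbouring brain beta-tubulins, each peaked in a different sorted library. Tubb2b had 1053 CPM in sorted library 10 and 0 to 155 CPM in the other 9, against 12.8 to 59.5 CPM in crude libraries. Its log2 fold change was 2.01 ± 0.85 (SE; edgeR adjusted p = 0.0762), and 0.28 without library 10. Tubb2a had 298 CPM in sorted library 2 and 0 to 68.3 CPM in the other 9, against 11.7 to 45.9 CPM in crude libraries. Its log2 fold change was 0.66 ± 0.84 (SE; edgeR adjusted p = 0.575), -1.71 without library 2 and -0.23 with library totals in place of TMM factors. Tubb2a had no count in 5 sorted libraries, yet at their depth a count of 0 allows up to 9.23 to 39.2 CPM of the unscaled total, and 1 of the 5 limits was below the lowest crude value of 13.5.

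Tubb4b, a widely expressed beta-tubulin, was the one tested member with a negative fitted change. It had no count in sorted libraries 4, 5, 6 and 7, where a count of 0 allows at most 9.23 to 30.9 CPM of the unscaled total. All 4 limits lay below the lowest crude level, since crude libraries held 221 to 537 CPM on that scale. Sorted libraries 1 and 2 went the other way, with 507 and 793 TMM-scaled CPM against 166 to 391 in crude libraries. Of the unscaled total they had 151 and 648 CPM, so library 1 was then below the crude range. The log2 fold change was -0.60 ± 0.89 (SE; edgeR adjusted p = 0.638). It was called lower by limma voom with sample weights (-3.12, adjusted p = 0.000272).

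Tubb4a, the oligodendrocyte-enriched beta-tubulin, was low and did not pass the threshold. Its lowest, median and highest levels were 7.92, 31.5 and 139 CPM in sorted libraries and 14.4, 25.6 and 42.7 CPM in crude libraries. The log2 fold change was 0.64 ± 0.52 (SE; edgeR adjusted p = 0.364), and -0.47 with library totals in place of TMM factors. Beside it, oligodendrocyte markers summed to 0.782% to 6.82% of counts in sorted libraries and 0.379% to 1.04% in crude ones.

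The highest sorted library was not the same for all members. Library 4 was highest for the 3 Tuba1 genes, library 2 for Tubb2a and Tubb4b, library 6 for Tuba4a and Tubb4a, library 1 for Tubb5 (library 3 without TMM factors), library 5 for Tubb3 and library 10 for Tubb2b. For 6 of the 10 members more than 50% of the summed sorted CPM came from 1 library, with Tuba1b at 91.5% and Tuba1c at 90.8% the most concentrated and Tubb4a at 32.7% the least. In crude libraries the largest such share outside Tuba1c was 21.4%, for Tuba4a. The same shares were not counted over all genes, so this concentration is not read as particular to tubulins.

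**Figure D2:**
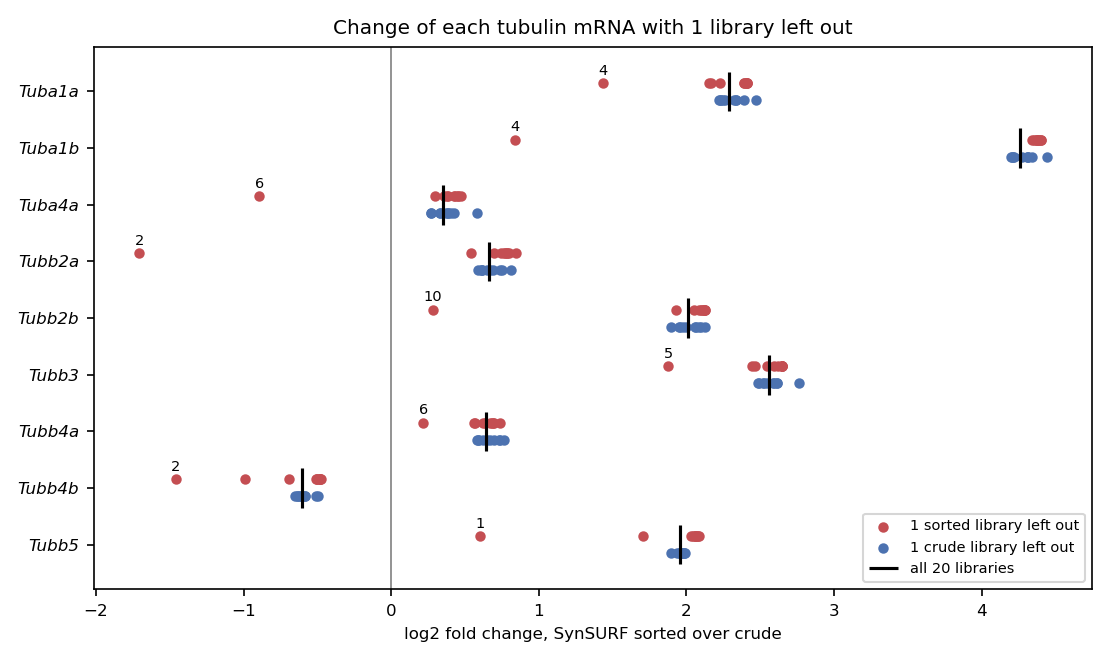
Log2 fold change of SynSURF sorted over crude for each tested tubulin gene with 1 sorted library (red) or 1 crude library (blue) left out; the black line is the value with all 20 libraries, and the number names the sorted library whose removal moves the value most. Removing library 4 takes Tuba1b to 0.84, removing library 6 takes Tuba4a to -0.89 and removing library 2 takes Tubb2a to -1.71, while Tubb3 stays between 1.88 and 2.76.

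Near-identical genes were also summed, which sets aside how reads were split among the genes of a sum. The sum of Tuba1a, Tuba1b and Tuba1c was 8510 ± 22482 CPM in sorted and 562 ± 248 CPM in crude libraries (SD, n = 10 each), a log2 fold change of 3.92 ± 1.03 (SE; edgeR adjusted p = 0.00511). The sum was 1.31 ± 0.69 without sorted library 4 (adjusted p = 0.149) and 0.78 without sorted libraries 1 and 4 (adjusted p = 0.374), alternatives added after the data were seen. The sum of Tubb2a and Tubb2b had a log2 fold change of 1.57 ± 0.75 (SE; edgeR adjusted p = 0.118), which became 1.79 (adjusted p = 0.0496) without libraries 1 and 4.

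The make-up of the alpha and beta pools, taken as shares of their summed TPM, differed from library to library after SynSURF sorting and was similar in all crude libraries. Tuba1b made up 1.16% to 89.4% of alpha-tubulin TPM in sorted libraries and 35.8% to 48.8% in crude libraries. Tuba1a made up 0 to 69.6% in sorted and 31.96% to 43.3% in crude libraries, and Tuba4a 0.00848% to 96.6% in sorted and 11.5% to 30.8% in crude libraries. Tuba4a was the largest alpha-tubulin in 2 sorted libraries, 6 and 7, and in no crude library. Of the beta-tubulins, Tubb5 was the largest in 5 sorted libraries, Tubb3 in 3, and Tubb2b and Tubb4b in 1 each, while in crude libraries Tubb5 was the largest in 6 and Tubb4b in 4. Tubb5 made up 6.68% to 96.4% of beta-tubulin TPM in sorted and 32.8% to 48.2% in crude libraries, and Tubb4b 0 to 50.4% in sorted and 32.2% to 53.5% in crude libraries. Some of these shares rest on very few counts: the alpha genes had 7 counts in sorted library 8, and the beta genes had 9 in sorted library 9.

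Alpha and beta subunits pair in equal amounts as proteins, and their summed messages were compared within each library. The ratio of summed alpha to summed beta TPM was 0.310 to 193 in SynSURF sorted libraries with a median of 1.47, against 0.504 to 2.00 with a median of 1.16 in SynSURF crude libraries. The value of 193 was that of library 4, and the next highest was 4.01 in library 6. In that library 4 the alpha genes took 2.91% of all counts (95% Wilson interval 2.85% to 2.97%) and the beta genes 0.0188% (0.0146% to 0.0241%).

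**Figure D3:**
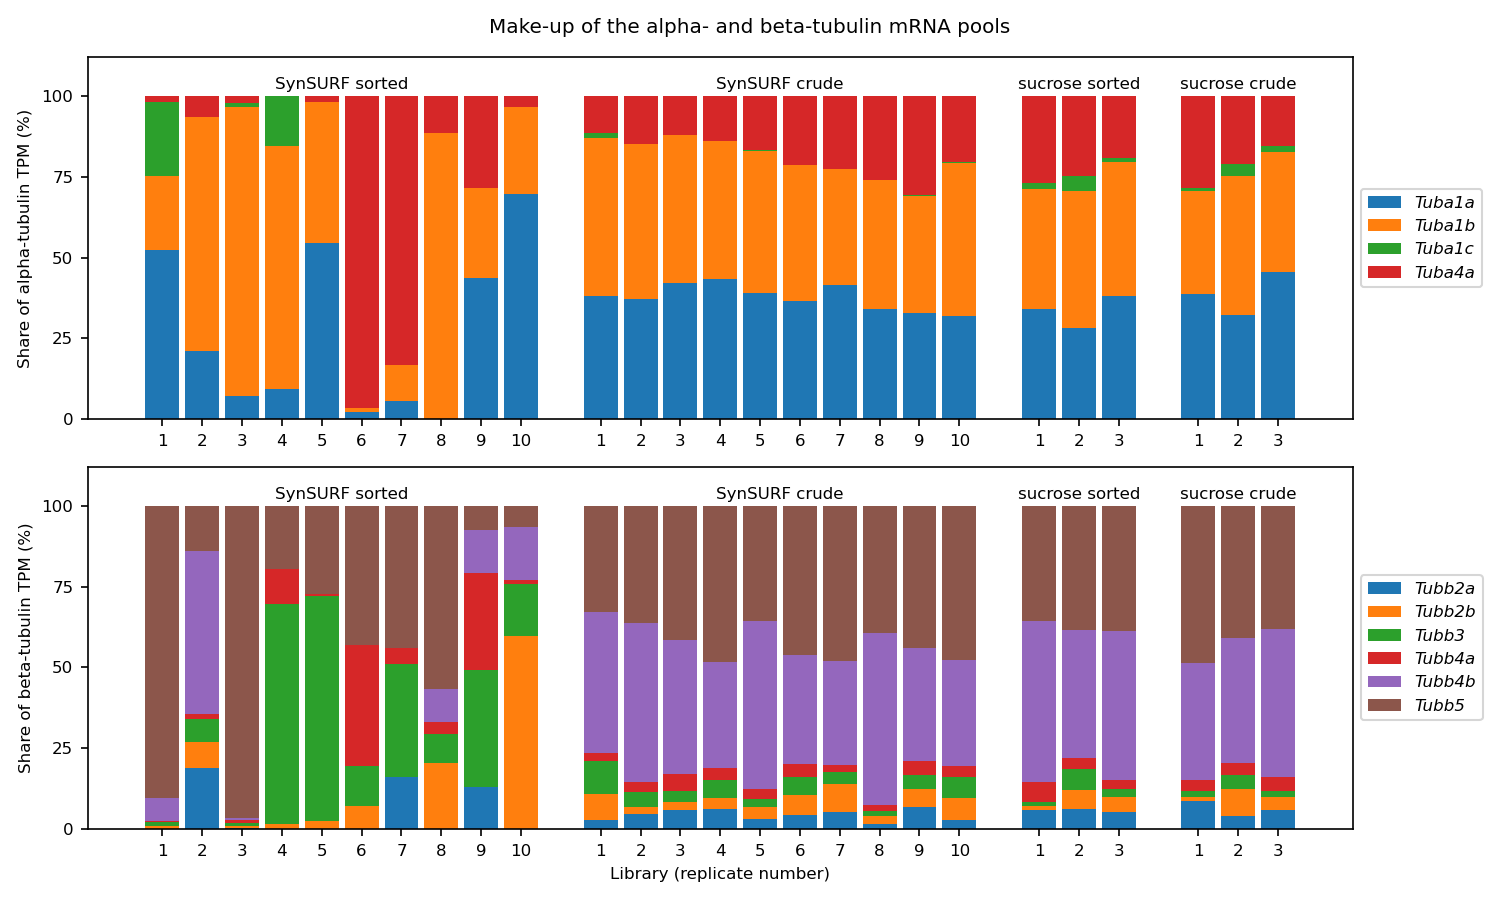
Stacked shares (%) of summed alpha-tubulin TPM (top) and beta-tubulin TPM (bottom) held by each gene in every library, numbered by replicate, with SynSURF sorted, SynSURF crude, sucrose sorted and sucrose crude libraries from left to right. Bars of the crude and of all sucrose libraries look alike, while SynSURF sorted libraries are led by different genes, such as Tuba4a in library 6, Tubb3 in library 5 and Tubb2b in library 10.

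In the sucrose gradient preparation no tubulin was called. All 10 members were tested, 0 passed, and the background was likewise 0% higher and 0% lower of 10589 genes (324 genes at an unadjusted p under 0.05 in edgeR; the DESeq2 Wald test called 1 gene and limma voom 0). Fitted log2 fold changes ran from -0.08 for Tubb2b to 0.58 for Tuba1c, 9 of 10 were positive, and the median was 0.35 against -0.04 over all genes tested. Each edgeR adjusted p was 0.999.

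The alpha-tubulins were close in both sucrose groups. Tuba1b had 483, 601 and 432 CPM in sorted libraries and 343, 471 and 337 CPM in crude libraries 1, 2 and 3, a log2 fold change of 0.40 ± 0.35 (SE). Tuba1a had 451, 408 and 407 CPM in sorted libraries and 426, 359 and 424 CPM in crude ones, a log2 fold change of 0.07 ± 0.34 (SE). Tuba4a had 470, 492.5 and 278 CPM in sorted libraries and 396, 315 and 198 CPM in crude ones, a log2 fold change of 0.45 ± 0.40 (SE). These 3 genes overlapped between groups. Between libraries of the same number, Tuba1b and Tuba4a were higher in the sorted one in 3 of 3 pairs and Tuba1a in 2, and a fit with the pairs as a block called none of them. The 95% interval of the Tuba1b change ran from -0.38 to 1.17.

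The beta-tubulins behaved alike. Tubb5 had 651, 826 and 656 CPM in sorted libraries and 736, 822 and 522 CPM in crude ones (log2 fold change 0.04 ± 0.35, SE). Tubb4b had 511, 468 and 436 CPM in sorted libraries and 312, 432 and 347 CPM in crude ones, with all 3 sorted libraries above all 3 crude ones, and a log2 fold change of 0.37 ± 0.35 (SE). How many of all genes had sucrose groups without overlap was not counted, so this separation is not read as a result about Tubb4b. In this comparison 0% of genes were called. Tubb4a averaged 63.9 ± 27.5 CPM in sorted and 50.6 ± 9.61 CPM in crude libraries, and Tubb2a 61.0 ± 11.2 and 54.5 ± 17.6 CPM (SD, n = 3 each).

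Tuba1c, Tubb2b and Tubb3 shared a pattern that followed the library number and not sorting. Tuba1b and Tubb5 were also highest in library 2 of both groups, with smaller differences between libraries. Tuba1c had 86.0 CPM in sorted library 2 and 53.4 in crude library 2, against 14.9 to 30.0 in the other 4 libraries. Tubb3 had 85.4 CPM in sorted library 2 and 52.6 in crude library 2, against 13.6 to 25.1 in the others. Tubb2b had 88.5 CPM in sorted library 2 and 116 in crude library 2, against 14.3 to 54.0 in the others. In SynSURF crude libraries the 3 genes were at their highest in library 1, with 7.39, 66.7 and 59.5 CPM for Tuba1c, Tubb3 and Tubb2b, although without TMM factors Tubb2b was highest in crude library 7. Leaving out sucrose sorted library 2 turned the log2 fold change of Tubb3 to -0.60, and leaving out crude library 2 took it to 1.34, both uncalled.

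**Figure D4:**
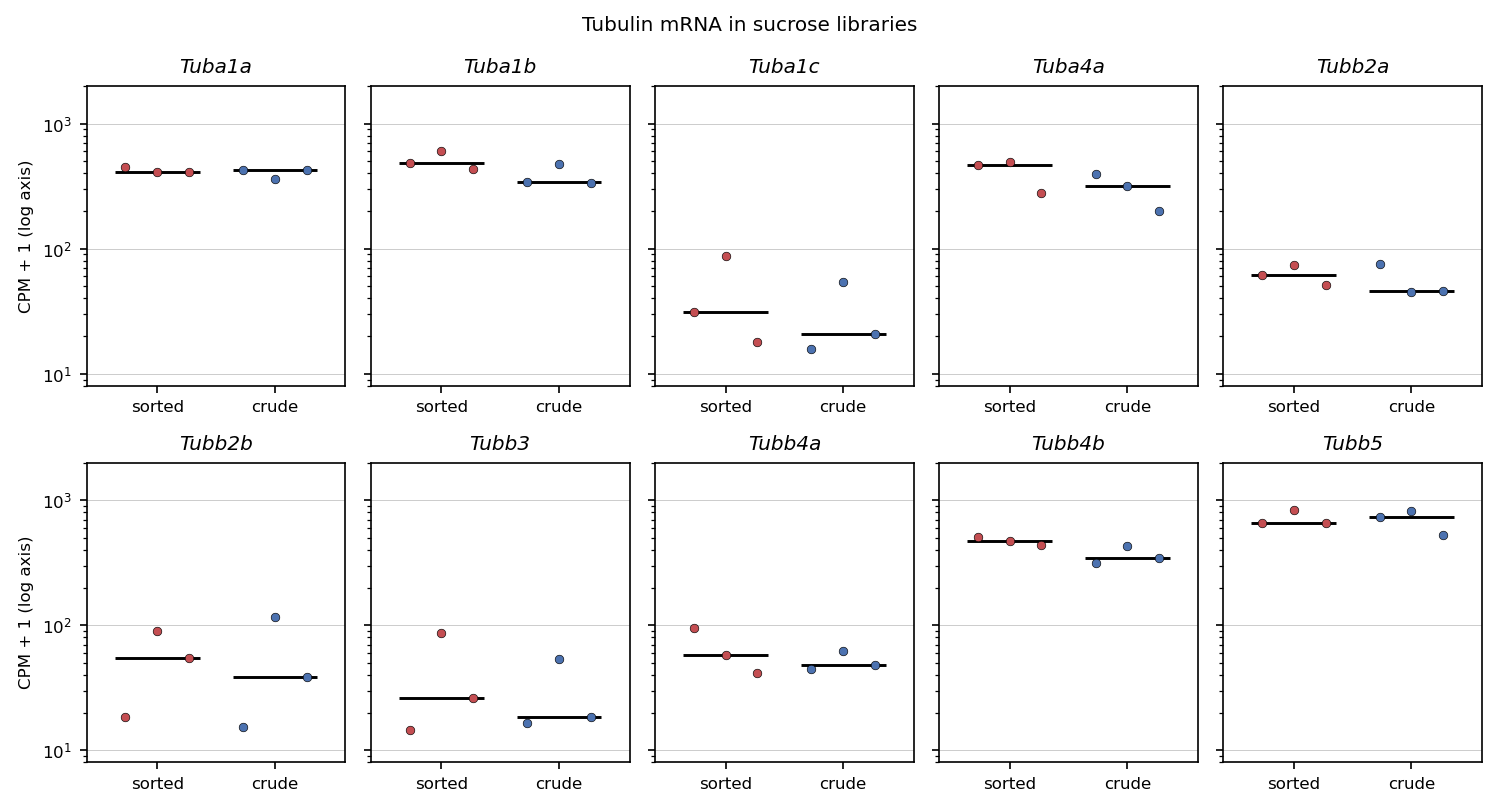
CPM + 1 on a log axis for each tubulin gene in the 3 sucrose sorted (left, red) and 3 sucrose crude (right, blue) libraries, with replicates 1 to 3 from left to right within a group and the median as a bar. Tuba1c, Tubb2b and Tubb3 are highest in library 2 of both groups, as are Tuba1b and Tubb5 with smaller differences between libraries. The groups of Tubb4b do not overlap, which was not counted over all genes.

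Levels in the 2 preparations come from tables normalized separately and are set side by side without a test. Tuba1c differed most: it had 0 to 5571 TPM in SynSURF sorted and 0 to 13.2 TPM in SynSURF crude libraries, and 20.5 to 95.1 TPM in sucrose sorted and 15.8 to 59.5 TPM in sucrose crude libraries. The other members' ranges overlapped between the crude groups.

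Whether sorting changed a tubulin differently in the preparations was tested as the difference of the SynSURF and sucrose effects in a fit over all 4 groups. None of the 10 tubulins was called. Over the 10713 genes tested, 0.299% were called higher in SynSURF and 17.3% lower, with a median difference of -1.17. The tubulins' median difference was 1.55 and 7 of 10 were positive. The median was 0.68 without SynSURF sorted library 4, 0.88 without library 1, 0.91 without library 10, 0.79 without sucrose crude library 2, 0.04 without SynSURF sorted libraries 1 and 4, 0.56 with library totals and -1.40 with limma voom. Tuba1c had the largest difference, 8.73 ± 3.24 (SE; edgeR adjusted p = 0.0588). It was called in 9 of the 26 fits that left out 1 library and was -1.15 without SynSURF sorted libraries 1 and 4. Tuba1b differed by 3.05 ± 1.86 (SE; edgeR adjusted p = 0.277) in this joint fit, whose scaling and dispersion are not those of the separate fits that gave 4.26 in SynSURF and 0.40 in sucrose. Tubb3 differed by 1.59 ± 1.19 (SE; adjusted p = 0.399) in the joint fit, so the call in SynSURF alone does not show that the preparations differ. The 95% interval for Tubb3 ran from -0.84 to 4.02.

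**Figure D5:**
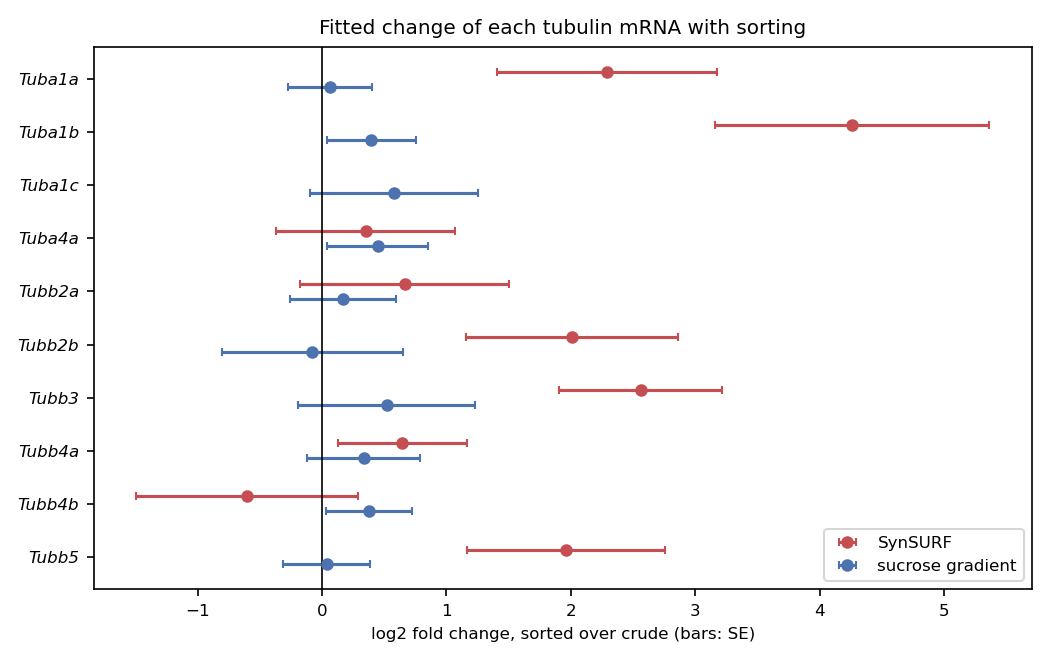
Fitted log2 fold change of sorted over crude (points, with SE as bars) for each tubulin gene in the SynSURF (red) and sucrose gradient (blue) preparations; Tuba1c did not pass the filter in SynSURF. SynSURF values run from -0.60 for Tubb4b to 4.26 for Tuba1b with wide errors, and sucrose values lie between -0.08 and 0.58.

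Genes that make, modify and bind tubulin were read beside the tubulins in SynSURF, from lists drawn up with earlier results of these data known. Of the folding genes, which encode the CCT chaperonin, prefoldin and the tubulin cofactors, 16 of 21 were tested, 2 rose and none fell, beside 7.62% higher and 22.1% lower over all genes tested. The most abundant, Cct2, had 444 ± 612 CPM in sorted and 175 ± 68.4 CPM in crude libraries (log2 fold change 1.34 ± 0.84, SE; edgeR adjusted p = 0.235). The 2 that rose were the prefoldin subunit Pfdn5 (1.99, adjusted p = 0.0390) and the cofactor Tbcb (1.89, adjusted p = 0.0338), and these calls held in 9 and 14 of the 20 fits that left out 1 library and in 8 and 7 of 13 alternative settings. The log2 fold change of Tbcb was 0.61 without sorted library 5. The 13 settings, here and below, include the fits with near-identical tubulins summed, which leave the counts of these genes as they were. Over the tested genes of each list the median log2 fold change was 0.68 for folding, 0.68 for modification, 1.70 for autoregulation and 0.38 for the microtubule partners, beside -0.18 over all genes.

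Of the tubulin-modifying enzymes 8 of 17 were tested and 1 rose, beside 7.62% of all genes tested. It was Vash1, a tubulin carboxypeptidase that removes the last tyrosine of alpha-tubulin (3.08 ± 1.02, SE; edgeR adjusted p = 0.0238; called in 19 of 20 fits that left out 1 library). Its call was lost in 4 of 13 alternative settings, over which its log2 fold change was as low as 1.08. The most abundant, the polyglutamylase Ttll7, had 199 ± 206 CPM in sorted and 156 ± 56.6 CPM in crude libraries and was not called. Of the autoregulation list, Ttc5 and CCR4-NOT subunits, 10 of 11 were tested and 1 rose, beside the same 7.62%. It was the deadenylase Cnot6l (3.76 ± 1.22, SE; edgeR adjusted p = 0.0217), a call not kept without sorted library 6 or in 4 of 13 alternative settings. Over those settings its log2 fold change was as low as -1.25.

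Of the microtubule partners 19 of 22 were tested, 3 rose and 1 fell, against the same 7.62% and 22.1% over all genes. Map4, a microtubule-associated protein found in many cell types, had 2390 ± 2102 CPM in sorted and 338 ± 58.4 CPM in crude libraries (2.82 ± 0.52, SE; edgeR adjusted p = 0.000145). Dcx, the doublecortin of migrating young neurons, had 2.84 ± 6.42 CPM in sorted and 21.1 ± 9.33 CPM in crude libraries (-2.66 ± 0.62, SE; edgeR adjusted p = 0.00189). Both were called in all 20 fits that left out 1 library. Map4 was called in all 13 alternative settings and Dcx in 12, the exception being crude libraries thinned to the sorted totals. In the shallowest sorted library a count of 0 allows 39.2 CPM of the unscaled total, so depth limits the Dcx values. Dclk1, a doublecortin-like kinase, had 1790 ± 2032 CPM in sorted and 1372 ± 483 CPM in crude libraries and was not called (0.38 ± 0.59, SE; edgeR adjusted p = 0.647). Map6, which stabilises microtubules, rose (2.96, adjusted p = 0.0214) and lost its call without sorted library 7 and in 4 of 13 alternative settings, with a lowest value of 0.26. Mapre2, a plus-end protein, rose (2.15, edgeR adjusted p = 0.0438) but kept its call in 9 of 20 fits and in 5 of 13 alternative settings, with a lowest value of -0.36. None of the other 10 tubulins listed, among them the gamma-tubulins Tubg1 and Tubg2, passed the expression filter. In sucrose none of these lists had a called gene, and their median log2 fold changes were 0.01 for folding, -0.15 for modification, -0.25 for autoregulation and -0.09 for the partners.

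Markers of other cells moved with SynSURF sorting too. All 11 oligodendrocyte markers had a count in sorted and in crude libraries, and 3 of 9 tested rose, beside 7.62% of all genes tested. Only 5 of the 9 had a positive log2 fold change, and the lowest was -1.75. Of those that rose, Mbp had the highest level, 38464 ± 21478 CPM in sorted and 2602 ± 908 CPM in crude libraries. Astrocyte markers summed to 0.0366% to 0.591% in sorted and 0.752% to 1.69% in crude libraries, and 4 of 8 fell, beside 22.1% of all genes. Of these, Slc1a3 kept its call in 9 of the 20 fits that left out 1 library. Microglia markers summed to 0.00206% to 0.0507% in sorted and 0.0471% to 0.0910% in crude libraries. Of 5 tested, 3 fell, beside the same 22.1%, and Cx3cr1 was at 0 in sorted libraries. Of the 3, Csf1r kept its call in 3 of those 20 fits. The 4 endothelial markers, Cldn5, Flt1, Pecam1 and Tek, were at 0 in all SynSURF sorted libraries. In crude libraries Flt1, Pecam1 and Cldn5 averaged only 2.64, 0.60 and 0.51 CPM. A count of 0 allows 1.655 CPM of the unscaled total in sorted library 1, the deepest, and 39.2 in library 8, the shallowest. The endothelial markers and Cx3cr1 were not tested, and their zeros are not read as a fall. Red cell markers summed to 0 to 0.0824% in sorted and 0.00422% to 0.0395% in crude libraries. Neuron markers, all 11 with a count, summed to 0.118% to 0.778% in sorted and 0.579% to 0.819% in crude libraries. Of 11 tested, 1 was higher (Snap25) and 2 were lower (Syt1 and Gad2), beside 7.62% and 22.1% of all genes tested. Of these 11, 8 had a positive log2 fold change, and the median was 0.46. The summed shares of all marker lists are of unscaled totals that include Rn45s, while the fold changes use TMM factors, so the 2 can differ in direction. In sucrose, oligodendrocyte markers summed to 0.623% to 0.640% in sorted and 0.591% to 1.04% in crude libraries, and no gene of these lists was called. In bulk libraries fewer particles of a kind and less RNA per particle cannot be told apart, and the part of these shares in the tubulin levels was not tested.

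Across the 10 SynSURF crude libraries, where depth was higher, the genes most like the leading tubulins were ranked by Spearman's rho of log2(CPM + 1) among 2880 genes with a mean of at least 50 CPM. Those for Tuba1b included Tuba1a (0.98), Tcf25 (0.96), Plekhb1 (0.94) and Eef1a1 (0.93). For Tubb5 they were Aplp1 (0.96), Rps16 (0.88), Igsf8 (0.85), Camkv (0.84) and Sez6l2 (0.82). These values describe 10 libraries that also share depth and TMM scaling, and Tuba1a and Tuba1b share most of their sequence.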

How the data were processed

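Both count tables hold estimated counts per gene symbol as deposited by the authors, not all whole, and these were rounded here. The authors also deposited TPM per library, used here for levels between genes. Per the submitters' processing notes, fastp, HISAT2, GRCm38 and GRCm39 were involved; their roles and versions, the counter, the annotation and the strand setting are not stated there. A further 18 per-sample columns were left aside. Groups and replicate numbers came from sample titles.

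The members and gene lists were chosen with earlier results of these data known. Sorted and crude libraries were compared with edgeR 4.0.16 (R 4.3.3; quasi-likelihood test, TMM, filterByExpr, group only), with Benjamini-Hochberg adjustment over all genes tested at 0.05. The difference of effects was fitted over the 23466 symbols in both tables. Alternatives used DESeq2 1.42.0 and limma 3.58.1. Alternatives with near-identical genes summed and libraries 4, or 1 and 4, left out were added after seeing the data. Intervals of fold changes use the t quantile of the fit. SE is the absolute log2 fold change divided by the square root of F. The code was tested on simulated data. Wilson intervals (95%) and zero-count limits (3 counts) cover counting error only. In sucrose, same-numbered sorted and crude libraries deviated together (r 0.323 to 0.473 for all 3 pairs), so the numbers pair them by this check; a replicate block called 1 gene instead of 0, no tubulin among them.

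Named genes are all 10 members, up to 3 of each list with the highest mean CPM, and the 5 genes most like the alpha and the beta member with the highest count per kilobase in SynSURF crude libraries. List and marker genes named because they passed the threshold, and the pattern shared by Tuba1c, Tubb2b and Tubb3, were chosen after values were seen. Sequences, lengths and positions are from GENCODE M21 (GRCm38), which may not be the build of the counts. Protein sequences were not used here. A gene among those most like Tuba1b and a pair of coding-end sequences are not reported here.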

Additional observations from a re-analysis of the deposited data

Results flagged for a closer look

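In 9 of the 10 tubulins the highest of the 10 SynSURF sorted libraries stood apart from the others by a gap above Dixon's critical share of the range, 0.466. For normally distributed values chance gives about 1 such flag in 20 groups, and 20 groups were looked at. These values are skewed and the 3 Tuba1 genes share reads, so that rate need not hold here. How many of all genes the same rule flags was not counted, so the flags are not read as a trait of tubulins. The gap as a share of the range was 0.977 for Tuba1b (library 4, 51512 CPM, next 1181), 0.899 for Tuba1c (library 4, 14020 CPM, next 1409) and 0.620 for Tuba1a (library 4, 6466 CPM, next 2458). It was 0.853 for Tubb2b (library 10, 1053 CPM, next 155), 0.815 for Tuba4a (library 6, 1365 CPM, next 259), 0.771 for Tubb2a (library 2, 298 CPM, next 68.3) and 0.677 for Tubb3 (library 5, 785 CPM, next 274). It was 0.641 for Tubb5 (library 1, 11505 CPM, next 4140) and 0.623 for Tubb4a (library 6, 139 CPM, next 57.4).

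In SynSURF crude libraries 3 values stood apart. The share was 0.783 for Tuba1c (library 1, 7.39 CPM, next 1.603), 0.530 for Tubb3 (library 1, 66.7 CPM, next 38.8) and 0.488 for Tuba4a (library 9, 373 CPM, next 218). The scaling bears on these gaps. With CPM of the unscaled total, a check added after the data were seen, 8 tubulins stood apart in sorted libraries and 1, Tuba1c, in crude ones. Tuba1a (0.384) and Tubb5 (0.026, with library 3 highest) were then under the critical share in sorted libraries, and Tubb4b (0.722, library 2) was above it. In crude libraries Tubb3 (0.358) and Tuba4a (0.436) were under it. What sets these libraries apart was not tested.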

How the results depend on the processing

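Tubb3 was called higher in SynSURF in 11 of 12 alternatives that tested it, and Tuba1b in 6 of 10. The 12 include the fits with near-identical genes summed, which leave the Tubb3 counts as they were. Those fits add little for Tubb3, and they do not hold Tuba1b as a gene of its own. Called tubulins numbered 2, and 2 to 5 with 1 library left out, 4 with the DESeq2 Wald test (Tuba1a, Tubb2b and Tubb3 higher, Tubb2a lower), and 1 each with a replicate block and with crude libraries thinned to sorted totals (Tuba1b; Tubb3 was not tested there). All genes called numbered 1961, against 3070 (DESeq2), 4417 (no filter), 3263 (mean of at least 5 CPM) and 416 (thinned). Whether SynSURF replicate numbers pair the samples is not stated. A check on the data points to pairing for most libraries, with low correlations. Same-numbered sorted and crude libraries had r of 0.056 to 0.186, over 0.1 in 2 of 10 pairs. The own number was the best match for 8 of the 10 sorted libraries. The calls of Tubb3 and Tuba1b without a block are therefore to be read beside the block fit. With the replicate block Tubb3 was 1.88 (edgeR adjusted p = 0.0778), Tuba1b was 0.55 (adjusted p = 0.536) and Tubb4b was called lower (-3.29), while Tuba1a, Tuba4a, Tubb2a and Tubb5 became -0.00484, -0.80, -2.02 and -0.34. The tubulins' median was then -0.0048, and -0.43 for the difference of effects.

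Other log2 fold changes that changed sign in SynSURF were, with library totals, Tuba4a (-0.58), Tubb2a (-0.23) and Tubb4a (-0.47). With DESeq2 it was Tubb2a (-1.56). With limma voom they were Tuba1a (-0.998), Tuba1b (-0.35), Tuba4a (-0.68), Tubb2a (-0.77), Tubb2b (-0.016) and Tubb5 (-0.54). With 1 library left out Tuba4a ran from -0.89 to 0.58 and Tubb2a from -1.71 to 0.84.

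In sucrose 0 tubulins were called in any alternative. All genes called were 1 with DESeq2, with no filter and with the replicate block, and 0 to 1 with 1 library left out. Tubb2b was 0.12 with the block. With 1 library left out Tuba1a ran from -0.0036 to 0.11, Tuba1c from -0.35 to 1.37, Tubb2b from -0.68 to 1.05, Tubb3 from -0.60 to 1.34, Tubb4a from -0.054 to 0.59 and Tubb5 from -0.14 to 0.18.

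For the difference of effects, 1 tubulin was called with limma voom (Tubb4b, lower) and 0 to 1 with 1 library left out. All genes called numbered 1885, against 3033 (library totals) and 474 (thinned). Tubb4a was 0.12 (DESeq2 size factors), 0.024 (DESeq2) and 0.27 (thinned), and Tubb2a -0.37 (library totals). With limma voom Tuba1a, Tuba1b, Tubb2a, Tubb2b and Tubb5 were -1.998, -1.80, -1.43, -0.27 and -1.39. With the replicate block they were -0.45, -0.22, -2.47, -0.42 and -0.82. Without SynSURF sorted libraries 1 and 4 Tuba1b was -0.10 and Tuba1c -1.15. With 1 library left out Tubb2a ran from -2.24 to 0.36 and Tubb4a from -0.55 to 0.36. The cause of these changes was not tested. Depth limits the SynSURF values: sorted totals were as low as 76520 counts, at which a count of 0 allows 39.2 CPM.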
